A study of Mus musculus with 15 samples.

Results

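The genes described here are regulators and markers of adipogenesis, the formation of fat cells, in mouse embryonic fibroblasts. They were chosen by name as Cebpa, Cebpb, Cebpd, Fabp4, Adipoq, Cd36, Plin2, Dlk1, Zfp423 and Pref1, and 9 of the 10 names had a row among the 22063 rows of the count table. Pref1 had no row of its own and is an older name of Dlk1, so both names stand for the same row. After removal of genes with low counts, 7 of the 9 rows were among the 14012 genes tested, and Adipoq and Cd36 were not.

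Adipogenesis in cultured cells is driven by a relay of transcription factors. Hormonal induction raises C/EBPβ and C/EBPδ, which switch on C/EBPα and the nuclear receptor PPARγ, and these maintain each other and activate genes of the lipid-storing cell such as Fabp4, Adipoq and Cd36. Dlk1 and Zfp423 mark the precursor stage: the first holds differentiation back and the second commits mesenchymal cells to the fat lineage. Embryonic fibroblast cultures contain precursors that can become fat cells, but the sample labels name no adipogenic induction.

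Primary C57Bl/6 mouse embryonic fibroblasts, connective tissue cells at passage 2 from a commercial source, were electroporated with a plasmid that carried Crxos, Oboxa1 (Obox6), Oboxa4 (Obox1) or Oboxa7 (Gm8053), or with the empty plasmid (Control). Every plasmid also expressed a green fluorescent protein, and the inserted gene was tagged with V5 and driven by the constitutive CMV promoter in cells that do not normally use these homeobox genes of the early embryo. RNA was sequenced from sorted fluorescent cells 48 h after electroporation in 3 libraries for each of the 5 conditions, with 28440415 to 42778823 counts per library. According to the study's methods, experiments were date-matched against variation between days, but the sources used here tie no library to a day or culture. The spread behind each p-value is that between libraries, and how much of it is technical was not tested.

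Principal component 1 of the 1000 most variable genes held 56.5% of their variance and separated 5 libraries (every Crxos library, replicate 3 of Oboxa1 and replicate 1 of Control) from the remaining 10. Each comparison is therefore given from a fit of all 15 libraries and, beside it, from a fit that compares conditions within these sets. Within the set of 5, Crxos is compared with Control replicate 1 alone. Oboxa4 and Oboxa7 are compared with Control replicates 2 and 3, and Oboxa1 with all 3 Control libraries. Fabp4 was among the 1000 genes that define the sets, and the other 6 tested members were not. Each library held at least 2009 counts of its own transfected gene, and the Control libraries held 0 of each. Summed markers of fibroblasts were 29520 to 39190 CPM in the transfected libraries and 25840 to 27980 CPM in Control libraries, with CPM the counts put on a common library size. Summed endothelial markers were 12.6 to 16.6 CPM in the set of 5 and 26.3 to 32.9 CPM in the set of 10. In the set of 5 against the set of 10, the sums were 2.10 to 4.45 against 5.09 to 13.9 CPM for epithelial markers, 8.71 to 12.3 against 9.55 to 13.3 CPM for macrophage markers and 449.5 to 533 against 420.4 to 513.6 CPM for pericyte markers. Skeletal myoblast markers summed to 18.7 to 20.9 CPM in Crxos libraries and to 5.55 to 6.56 CPM in Control libraries. Of these 5 markers, 4 (Myod1, Myog, Myf5 and Pax7) stayed under 10 counts in every library, so the sums rest almost wholly on Des. The part of these differences in the results below was not tested.

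The promoters of Cebpa and Cebpb, which were transcribed in every library, are printed with those of Adipoq and Cd36, which were at background, to show the start sites of both kinds of gene. Each sequence holds the 250 bases before the start site in RefSeq on GRCm38.p6, 5′ to 3′ on the gene's strand. Cebpa lies at chr7:35119043-35119292 (plus strand), Cebpb at chr2:167688665-167688914 (plus strand), Adipoq at chr16:23146286-23146535 (plus strand) and Cd36 at chr5:17835897-17836146 (minus strand), inside the span of the gene (chr5:17781690-17888959). Capitals mark a match on either strand to TATAAA (the TATA box), CCAAT (the CCAAT box), AGGTCA (a nuclear receptor recognition hexamer) or TAATCC (the hexamer preferred by the Otx and Crx homeodomains). TTGCNNAA, a C/EBP-type motif, was searched too and was not in these windows.
Cebpa: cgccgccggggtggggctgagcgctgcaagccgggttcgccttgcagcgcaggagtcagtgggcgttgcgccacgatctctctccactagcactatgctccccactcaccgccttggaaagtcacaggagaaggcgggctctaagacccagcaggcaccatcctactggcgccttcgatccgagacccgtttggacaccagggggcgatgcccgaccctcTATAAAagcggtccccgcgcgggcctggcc
Cebpb: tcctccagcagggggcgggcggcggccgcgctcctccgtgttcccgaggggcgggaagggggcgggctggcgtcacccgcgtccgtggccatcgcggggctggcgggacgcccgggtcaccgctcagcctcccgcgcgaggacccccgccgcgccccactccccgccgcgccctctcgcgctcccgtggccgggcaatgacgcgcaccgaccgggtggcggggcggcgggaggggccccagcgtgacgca
Adipoq: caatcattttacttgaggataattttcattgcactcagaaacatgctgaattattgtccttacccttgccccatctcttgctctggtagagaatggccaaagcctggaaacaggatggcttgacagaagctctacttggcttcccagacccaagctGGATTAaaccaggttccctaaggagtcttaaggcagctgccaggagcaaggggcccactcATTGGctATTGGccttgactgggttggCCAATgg
Cd36: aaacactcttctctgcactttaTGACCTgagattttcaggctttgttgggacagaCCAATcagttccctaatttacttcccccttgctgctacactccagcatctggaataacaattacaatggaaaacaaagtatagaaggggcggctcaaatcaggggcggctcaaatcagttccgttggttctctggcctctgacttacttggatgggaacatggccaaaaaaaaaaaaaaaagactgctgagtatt

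Cebpa had a TATA box at bases -30 to -25, counted from the start site, and Cebpb had no match to any of the motifs. Adipoq had CCAAT boxes at -34 to -30, -27 to -23 and -7 to -3 and the TAATCC hexamer, on the minus strand, at -94 to -89. Cd36 had the nuclear receptor hexamer at -228 to -223 and a CCAAT box at -195 to -191. Cebpb and Cebpa were rich in G and C (81.6% and 66.4%) with 41 and 22 CpG dinucleotides, whereas Adipoq and Cd36 had 48.8% and 43.2% with 0 and 3, against a median of 52.4% and 6 over all 32851 windows of that length. Among all windows, 6.25% held TAATCC, 12.4% TATAAA, 33.8% CCAAT, 14% AGGTCA and 9.56% TTGCNNAA. RefSeq windows were found for 7 of the 9 members. Of those not printed, Plin2 had 61.6% G and C with 6 CpG and Dlk1 had 54.8% with 8. The 2 windows of Zfp423 had 64.8% with 6 and 71.6% with 18. The contrast above thus did not extend to every transcribed member. A match is a description of the letters and shows no binding.

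Per kilobase of gene model, the members covered a wide range of levels. Plin2, which coats lipid droplets in most cell types, had a median of 87.3 RPKM over the 15 libraries (67.8 to 102.9 RPKM), with RPKM the CPM per kilobase of gene length. Dlk1 followed at 28.6 RPKM (19.2 to 40.9 RPKM) over a listed length of 9636 bases, which is longer than the usual Dlk1 transcript, so that its RPKM may understate the level. Without division by length the order was the reverse, with a median of 275 CPM for Dlk1 (185 to 394 CPM) and 209 CPM for Plin2 (162 to 246 CPM), and the ranges overlapped. Which of these genes was the more abundant is therefore not settled here.

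Fabp4, the fatty acid-binding protein of fat cells, had a median of 13.2 RPKM, Cebpb 11.7 RPKM and Cebpd 7.41 RPKM, and the ranges of these neighbours overlapped (3.91 to 16.4, 8.37 to 15.9 and 6.14 to 9.74 RPKM). Pparg, which encodes PPARγ and was followed beside the members, stood at 3.38 RPKM and Cebpa at 1.85 RPKM, again with overlapping ranges. Zfp423 lay below all of these at 0.47 RPKM. Plin2 and Dlk1 thus stood above the other members, with the 3 C/EBP genes between them and Zfp423.

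**Figure D1:**
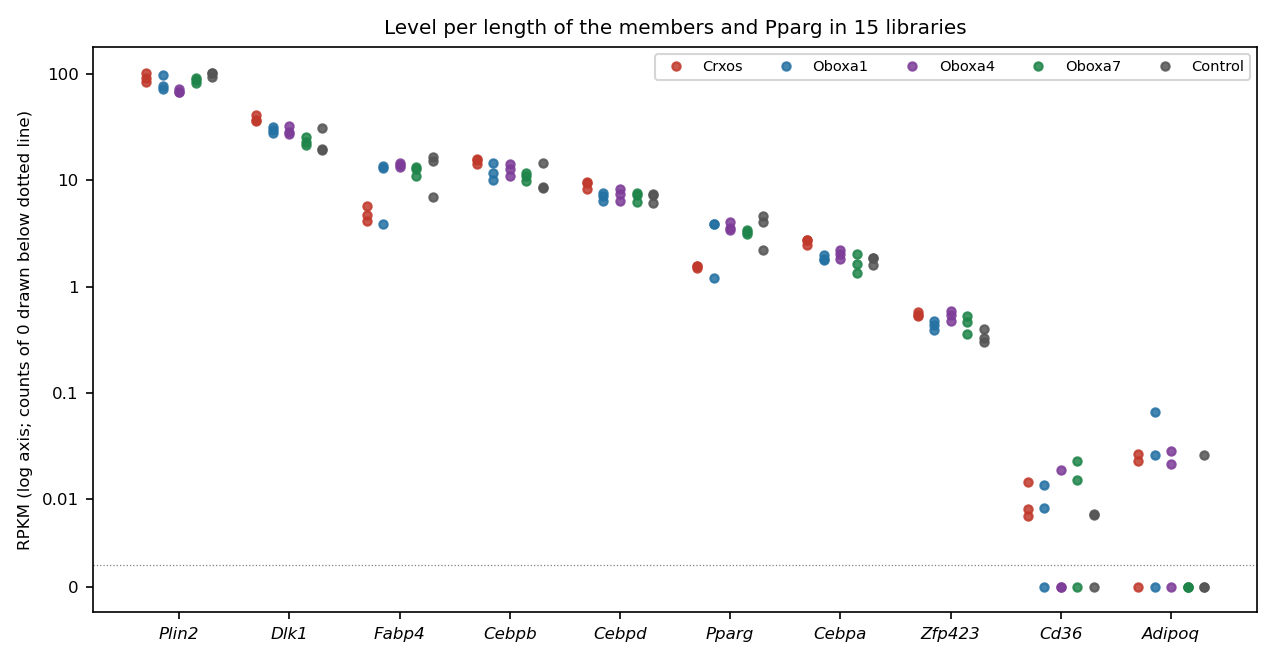
Level per length (RPKM, log axis) of the 9 members with a row and of Pparg, a point for each of the 15 libraries, coloured by condition. Plin2 (67.8 to 102.9 RPKM) lies above Dlk1 (19.2 to 40.9 RPKM), an order that rests on the listed length of Dlk1 and is the reverse in CPM, and Cd36 and Adipoq lie below 0.1 RPKM, with counts of 0 drawn under the dotted line.

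Adipoq, which encodes the hormone adiponectin of mature fat cells, was at background in every condition. Its raw counts were 1, 0 and 1 in Crxos libraries, 3, 0 and 1 in Oboxa1 libraries, 1, 0 and 1 in Oboxa4 libraries and 0, 0 and 0 in Oboxa7 libraries, against 0, 0 and 1 in Control libraries. Cd36, a fatty acid uptake receptor, had raw counts of 1, 2 and 1 in Crxos libraries, 2, 1 and 0 in Oboxa1 libraries, 0, 3 and 0 in Oboxa4 libraries and 0, 2 and 4 in Oboxa7 libraries, against 1, 1 and 0 in Control libraries. No library exceeded 4 counts of either gene, and no difference between conditions was detectable at this depth. A count of 0 allows 3 counts, or 0.0701 to 0.105 CPM depending on the library. Of 10 markers of mature fat cells, 8 stayed under 10 counts in every library of each transfected condition and 9 did so in the Control libraries, and their summed level was 5.62 to 9.22 CPM across all libraries.

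Under Crxos, 4 of the 7 tested members rose and 1 fell against Control (Cebpa, Cebpd, Dlk1 and Zfp423 rose, Fabp4 fell) by edgeR's quasi-likelihood test with a Benjamini-Hochberg adjusted p under 0.05 and a change of more than 25%, taken as the higher mean over the lower. Among all genes tested, 16.8% were called in this comparison, 8.38% as higher and 8.4% as lower. The libraries of the same 5 members did not overlap with the Control libraries, which held for 40.8% of all genes. Within the sets, where 12.1% of genes were called, 2 members remained, Zfp423 and Fabp4. The calls were 3 without Crxos replicate 2, Crxos replicate 3 or Control replicate 3, in each case without Cebpd and Fabp4. No share of all genes was computed for these 3 fits.

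Under Oboxa4, Zfp423 rose and Plin2 fell, so 2 of the 7 members were called, against 13.9% of all genes (8.06% higher and 5.83% lower). The number of members whose libraries did not overlap with Control was 0 under Oboxa1, 2 under Oboxa4 and 1 under Oboxa7 (Plin2), against 24.6%, 40.3% and 33.9% of all genes. Under Oboxa1 and Oboxa7, 0 of the 7 were called by edgeR's quasi-likelihood test, against 7.53% and 5.67% of all genes. At an unadjusted p under 0.05 the counts were 2 and 1 members, and the share of all genes at that threshold was not computed. DESeq2 called 0 members in both, against 8.98% and 6.91% of the genes it tested. Within the sets, 2 members were called under Oboxa1, 4 under Oboxa4 and 2 under Oboxa7, against 14.6%, 20.4% and 11.9% of all genes. The 4 comparisons share the same Control libraries. Without Control replicate 1, the counts were 2 under Oboxa1 and 4 under Oboxa4, with Cebpb and Dlk1 added as higher in each. No share of all genes was computed for that fit.

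**Figure D2:**
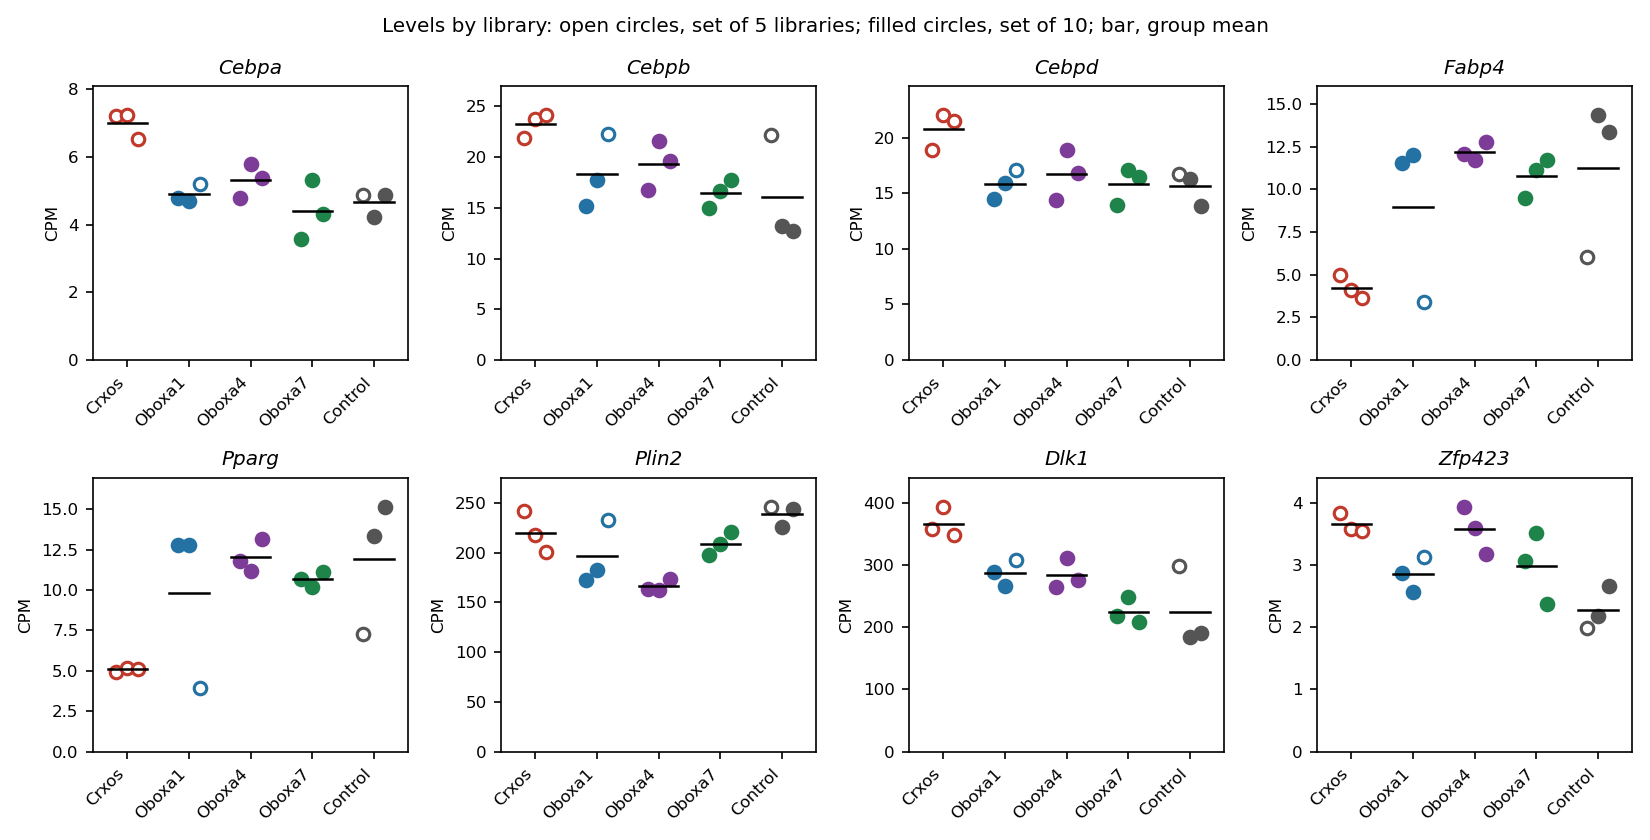
CPM of the 7 tested members and Pparg in each library, by condition, with a bar at the mean of 3 libraries. Open circles are the set of 5 libraries and filled circles the set of 10, and Fabp4 and Pparg are lower in every open circle (3.41 to 6.06 and 3.92 to 7.31 CPM) than in any filled one (9.51 to 14.3 and 10.2 to 15.2 CPM).

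Cebpa encodes C/EBPα, which sustains the fat cell programme once it has started (chr7:35119293-35121928, GRCm38.p6). It measured 7.21, 7.23 and 6.54 CPM in Crxos libraries, 4.80, 4.70 and 5.20 CPM in Oboxa1 libraries, 4.78, 5.80 and 5.39 CPM in Oboxa4 libraries and 3.58, 5.31 and 4.32 CPM in Oboxa7 libraries, against 4.88, 4.24 and 4.88 CPM in Control libraries. All 3 Crxos libraries lay above every Control library and every Obox library, while the libraries of each Obox gene overlapped with Control. The log2 fold change was 0.59 ± 0.13 (SE) for Crxos, with an adjusted p of 0.00796 by edgeR's quasi-likelihood test. Within the sets the log2 fold change was 0.52, with an edgeR adjusted p of 0.0552, which misses the threshold. For the Obox genes it ran between -0.09 and 0.19 and no adjusted p was below 0.319.

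Cebpb encodes C/EBPβ, an early factor of the relay (chr2:167688915-167690432). It measured 21.8, 23.8 and 24.1 CPM in Crxos libraries, 15.2, 17.7 and 22.2 CPM in Oboxa1 libraries, 16.8, 21.5 and 19.6 CPM in Oboxa4 libraries and 14.98, 16.7 and 17.7 CPM in Oboxa7 libraries, against 22.2, 13.2 and 12.7 CPM in Control libraries. Control replicate 1 stood at the level of the Crxos libraries and well above the other Control libraries, so the groups overlapped in all 4 comparisons. In the 15-library fit Cebpb was not called under Crxos (log2 fold change 0.53 ± 0.19, edgeR adjusted p = 0.0542), whereas DESeq2 gave an adjusted p of 0.0244 and passed it. Without Control replicate 1 the log2 fold change was 0.84, called with an edgeR adjusted p of 0.000839, and within the sets, where that library is the only control, it was 0.07 with an adjusted p of 0.769.

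Under Oboxa4, Cebpb had a log2 fold change of 0.27 ± 0.19 in the 15-library fit and was not called (edgeR adjusted p = 0.321). Within the sets, that is against Control replicates 2 and 3, it rose by 0.58 on the log2 scale (edgeR adjusted p = 0.000338). Oboxa7 showed a smaller rise within the sets, 0.35 with an edgeR adjusted p of 0.024, and 0.04 without them. Oboxa1 was not called in either fit (0.19 and 0.23). These values were all above 0, but only the within-set values under Oboxa4 and Oboxa7 were called. With each library left out of the 15-library fit, the Oboxa7 value ranged from -0.10 to 0.35, so its sign was not settled. The size of the Cebpb difference turned on which Control library it was set against.

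Cebpd encodes C/EBPδ, the partner of C/EBPβ in the early step (chr16:15887286-15889545). It measured 18.9, 22.01 and 21.5 CPM in Crxos libraries, 14.4, 15.9 and 17.1 CPM in Oboxa1 libraries, 14.4, 18.9 and 16.8 CPM in Oboxa4 libraries and 13.99, 17.1 and 16.5 CPM in Oboxa7 libraries, against 16.7, 16.3 and 13.9 CPM in Control libraries. The Crxos libraries lay above every Control library, by the smallest ratio among the members that rose, and the Obox libraries overlapped with Control. The log2 fold change under Crxos was 0.41 ± 0.11 (edgeR adjusted p = 0.0202). Without Crxos replicate 2, Crxos replicate 3 or Control replicate 3 its adjusted p was 0.0812, 0.0615 and 0.0976, and within the sets the value was 0.31 with an edgeR adjusted p of 0.146. For the Obox genes the log2 fold changes were 0.02 to 0.10.

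Fabp4, a target of PPARγ, was the member that varied most among libraries, 4.20-fold between the lowest and the highest (chr3:10204342-10208616). It measured 4.98, 4.11 and 3.65 CPM in Crxos libraries, 11.5, 12.00 and 3.41 CPM in Oboxa1 libraries, 12.1, 11.7 and 12.8 CPM in Oboxa4 libraries and 9.51, 11.1 and 11.7 CPM in Oboxa7 libraries, against 6.06, 14.3 and 13.4 CPM in Control libraries. The 5 lowest libraries were exactly those of the set of 5, at 3.41 to 6.06 CPM, and the set of 10 held 9.51 to 14.3 CPM. The same split ran through the Oboxa1 group, where replicate 3 stood at 3.41 CPM, and through the Control group, where replicate 1 stood at 6.06 CPM. Fabp4 is also transcribed in capillary endothelium. Summed endothelial markers divided the libraries in the same way, as did summed epithelial markers, and the part of either in the result was not tested. In bulk RNA, fewer cells that express a gene and less RNA per cell cannot be told apart.

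Fabp4 fell under Crxos by 1.40 ± 0.38 on the log2 scale in the 15-library fit (edgeR adjusted p = 0.0185) and by 0.51 within the sets (edgeR adjusted p = 0.0403). The call was lost without Crxos replicate 2 or 3 or Control replicate 2 or 3, with adjusted p between 0.0639 and 0.0759, and also when the sets entered the model as a term (-0.32, adjusted p = 0.199). Under the Obox genes the 15-library values were -0.32, 0.12 and -0.06 for Oboxa1, Oboxa4 and Oboxa7, none called. Within the sets Fabp4 fell under Oboxa1 (by 0.43, edgeR adjusted p = 0.00485) and Oboxa7 (by 0.36, edgeR adjusted p = 0.0223), and under Oboxa4 it was -0.18 and not called.

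Pparg, the nuclear receptor gene upstream of Fabp4 in the relay (chr6:115360879-115490404), is shown for reference. It measured 4.95, 5.19 and 5.13 CPM in Crxos libraries, 12.8, 12.8 and 3.92 CPM in Oboxa1 libraries, 11.8, 11.2 and 13.2 CPM in Oboxa4 libraries and 10.7, 10.2 and 11.1 CPM in Oboxa7 libraries, against 7.31, 13.4 and 15.2 CPM in Control libraries. Its 5 lowest libraries were those of the set of 5, as for Fabp4, and it too was among the 1000 genes that define the sets. The log2 fold change under Crxos was -1.23 ± 0.34 (edgeR adjusted p = 0.0208) and -0.52 within the sets (adjusted p = 0.0105). Without any single Crxos library or without Control replicate 2 or 3 the adjusted p of the 15-library fit was 0.0567 to 0.0902. Within the sets Pparg also fell under Oboxa1 (by 0.40) and Oboxa7 (by 0.42), with edgeR adjusted p of 0.00216 and 0.0029, and reached -0.24 under Oboxa4, short of the fold threshold. With a term for the sets it was called under Oboxa4 (-0.33, edgeR adjusted p = 0.0411), whereas the Crxos value was -0.29 and was not called (edgeR adjusted p = 0.211).

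Plin2 (chr4:86626910-86670217) encodes perilipin 2, which coats lipid droplets and rises with lipid load in many cells. It measured 242, 217 and 201 CPM in Crxos libraries, 173, 183 and 233 CPM in Oboxa1 libraries, 164, 162 and 174 CPM in Oboxa4 libraries and 198, 209 and 221 CPM in Oboxa7 libraries, against 246, 226 and 244 CPM in Control libraries. All 3 Oboxa4 libraries, and all 3 Oboxa7 libraries by a narrow margin, lay below the lowest Control library, while the Crxos and Oboxa1 libraries overlapped with Control. Plin2 fell under Oboxa4 by 0.52 ± 0.10 on the log2 scale (edgeR adjusted p = 0.00313), by 0.49 within the sets, and the call held with each library left out in turn (adjusted p up to 0.0159). This was the only member that fell under an Obox gene in the 15-library fit.

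Under Oboxa1 the log2 fold change of Plin2 was -0.28 ± 0.10 (edgeR adjusted p = 0.0782), and without Oboxa1 replicate 3, which held 233 CPM, it fell by 0.42 with an adjusted p of 0.00216. Under Oboxa7 it was -0.19 (edgeR adjusted p = 0.237) and under Crxos -0.12 (edgeR adjusted p = 0.418). All 4 values were negative in both fits, and the call was made for Oboxa4 alone. Within the sets the Oboxa1 value of Plin2 was -0.29 and missed the call on the fold threshold only. With a term for the sets the Oboxa1 value was also -0.29 (edgeR adjusted p = 0.00809), again short of the fold threshold.

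Dlk1, also called Pref-1, encodes a transmembrane protein with EGF repeats that is shed from precursor cells, and is an imprinted gene (chr12:109452485-109463336). It measured 358, 394 and 348 CPM in Crxos libraries, 289, 266 and 308 CPM in Oboxa1 libraries, 265, 311 and 275 CPM in Oboxa4 libraries and 219, 248 and 208 CPM in Oboxa7 libraries, against 299, 185 and 191 CPM in Control libraries. The Crxos libraries lay above every other library of the study. Control replicate 1 (299 CPM) stood apart from Control replicates 2 and 3 (185 and 191 CPM), so the libraries of each Obox gene overlapped with Control. The median over libraries was 348 CPM in the set of 5 and 256 CPM in the set of 10.

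Dlk1 rose under Crxos with a log2 fold change of 0.70 ± 0.15 (edgeR adjusted p = 0.00496), a call that held with each library left out (adjusted p up to 0.0301). Within the sets, against Control replicate 1, it was 0.29 with an edgeR adjusted p of 0.053, which misses the threshold. For Oboxa1 and Oboxa4 the 15-library values were 0.35 and 0.33, not called (edgeR adjusted p = 0.132 and 0.116), and within the sets Dlk1 rose by 0.39 and 0.60 (edgeR adjusted p = 0.000451 and 2.03e-05). Oboxa7 gave -0.0014 in the 15-library fit and 0.26 within the sets, where the adjusted p was 0.0252 but the change stayed under 25%. The size of the Dlk1 difference thus turned on which Control libraries it was set against, as for Cebpb.

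Zfp423 encodes a zinc finger factor of fat cell commitment (chr8:87661810-87962053). It measured 3.83, 3.59 and 3.55 CPM in Crxos libraries, 2.88, 2.57 and 3.12 CPM in Oboxa1 libraries, 3.93, 3.60 and 3.18 CPM in Oboxa4 libraries and 3.06, 3.52 and 2.38 CPM in Oboxa7 libraries, against 1.99, 2.18 and 2.66 CPM in Control libraries. Every Crxos and every Oboxa4 library lay above the highest Control library, and the Oboxa1 and Oboxa7 libraries overlapped with Control. Control replicate 1 was the lowest of all 15 libraries, so the split into sets did not run through this gene.

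Zfp423 rose under Crxos by 0.68 ± 0.16 on the log2 scale (edgeR adjusted p = 0.00914) and under Oboxa4 by 0.65 ± 0.16 (edgeR adjusted p = 0.0121). Within the sets the values were 0.88 and 0.56, both called, with edgeR adjusted p of 0.0133 and 0.0177. Both 15-library calls held with each library left out (adjusted p up to 0.0377 and 0.0429). The values for Oboxa1 and Oboxa7 were 0.33 and 0.39 (edgeR adjusted p = 0.206 and 0.145) and were called in neither fit. Zfp423 was the only member called in the same direction under more than a single transfected gene in both fits.

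**Figure D3:**
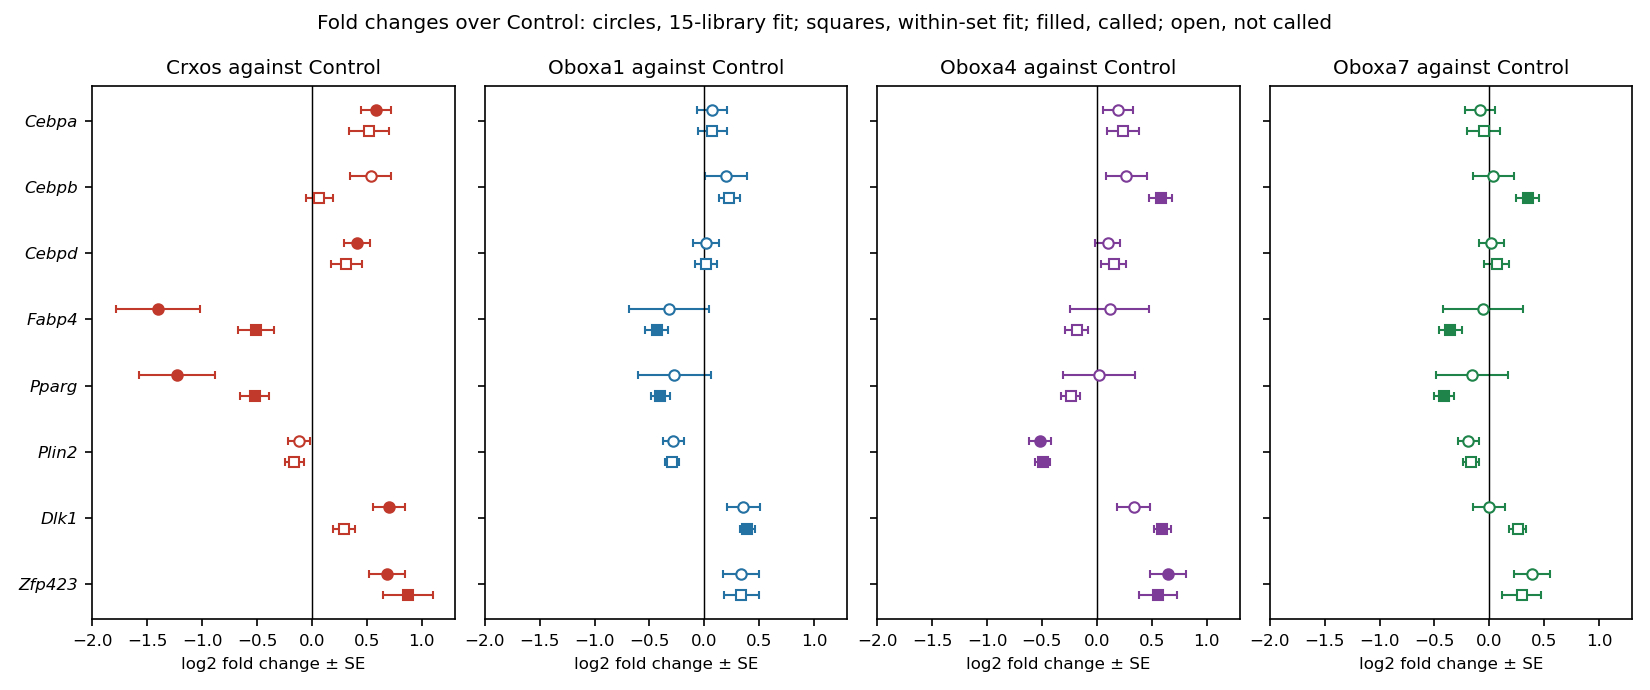
Log2 fold change over Control (± SE) of the 7 tested members and Pparg for each transfected gene. Circles are the 15-library fit, squares the within-set fit, and filled symbols pass the thresholds, as Zfp423 does in both fits under Crxos and Oboxa4 and Plin2 under Oboxa4.

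Crxos was also set against each Obox gene. The Crxos libraries exceeded the Oboxa7 libraries for Cebpa by 0.67 ± 0.13, Cebpd by 0.39 ± 0.11 and Dlk1 by 0.71 ± 0.15 on the log2 scale, and Fabp4 was lower by 1.34 ± 0.38, with edgeR adjusted p of 0.0086, 0.0259, 0.00987 and 0.0239. Against Oboxa4, Cebpa and Plin2 were higher under Crxos by 0.39 ± 0.13 and 0.40 ± 0.10 and Fabp4 was lower by 1.52 ± 0.38 (edgeR adjusted p = 0.0391, 0.012 and 0.0133). In these comparisons 17.4% and 20.6% of all genes were called. Against Oboxa1 the edgeR adjusted p of the 7 members were 0.18 to 0.365, so none was called, and 0.0285% of all genes were.

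None of these Crxos and Obox differences passed within the sets. Crxos shares no set with Oboxa4 or Oboxa7, so the within-set value is a difference between changes from Control. It is the Crxos change from Control replicate 1 alone less the Obox change from Control replicates 2 and 3. There the Dlk1 difference from Oboxa7 was 0.03, and the Fabp4 differences were -0.15 from Oboxa7 and -0.32 from Oboxa4 (edgeR adjusted p = 0.746 and 0.33). Every Crxos library belongs to the set of 5 and every Oboxa4 and Oboxa7 library to the set of 10, so in the 15-library fit the set and the transfected gene cannot be told apart.

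Between the Obox genes, 0 of the 7 members were called in any of the 3 comparisons by edgeR's quasi-likelihood test, where 0.0285%, 0.121% and 0.186% of all genes were called (Oboxa1 against Oboxa4, Oboxa1 against Oboxa7 and Oboxa4 against Oboxa7). At an unadjusted p under 0.05 the counts were 1, 1 and 2, again with no share of all genes computed at that threshold. DESeq2 called 0 in each, against 0.033%, 0.572% and 0.724% of the genes it tested. Within the sets, Oboxa4 exceeded Oboxa7 for Dlk1 by 0.34 ± 0.07 and was lower for Plin2 by 0.33 ± 0.06 on the log2 scale (edgeR adjusted p = 0.00706 and 0.00428), in a comparison where 3.53% of all genes were called. With only those groups in the fit, 2 members were called as well, and the share of all genes was not computed there.

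Other genes of the pathway were read from lists. Shares of all genes called higher and lower were 8.38% and 8.4% under Crxos and 4.25% and 3.28% under Oboxa1. For Oboxa4 they were 8.06% and 5.83%, and for Oboxa7 3.33% and 2.34%. Within the sets they were 8.91% and 5.74% under Oboxa1, 12.7% and 7.71% under Oboxa4 and 7.62% and 4.3% under Oboxa7. For Crxos within the sets, against Control replicate 1 alone, they were 6.39% and 5.7%. The counts of every list below stand against these shares, some near them, and no list was tested as a set. Among 10 Notch pathway genes and relatives of Dlk1, 6 rose and 1 fell under Crxos, 5, 4 and 2 rose under Oboxa1, Oboxa4 and Oboxa7, and none fell under these 3, against the shares of all genes given above for each comparison. Within the sets 4, 6, 4 and 4 rose under Crxos, Oboxa1, Oboxa4 and Oboxa7, and Dlk2 and Notch4 fell under Crxos, Oboxa1 and Oboxa4. The medians of the list were 0.47, 0.49, 0.45 and 0.31 on the log2 scale for Crxos, Oboxa1, Oboxa4 and Oboxa7, against 0.00 over all genes. Notch3, a receptor, averaged 40.9 ± 1.92 CPM under Crxos, 41.3 ± 2.07 under Oboxa1, 46.5 ± 6.96 under Oboxa4 and 38.7 ± 2.97 under Oboxa7, against 27.2 ± 0.63 CPM in Control (SD, n = 3 each), and was called in all 4. It is also 1 of 6 pericyte markers, of which 3, 1, 1 and 2 rose under Crxos, Oboxa1, Oboxa4 and Oboxa7, and 2, 4, 4 and 4 within the sets. The summed pericyte markers were 494.5 to 510.4 CPM in Crxos libraries, 470.7 to 533 CPM in Oboxa1 libraries, 455.3 to 513.6 CPM in Oboxa4 libraries and 447.2 to 488.1 CPM in Oboxa7 libraries, against 420.4 to 449.5 CPM in Control libraries, and their part in the Notch counts was not tested.

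Hey1, a transcriptional repressor that Notch induces, was also called in all 4, with 4.20, 4.46, 3.88 and 3.54 CPM under Crxos, Oboxa1, Oboxa4 and Oboxa7 against 2.07 CPM in Control. Hey1 and Notch3 remained called in all 4 within the sets. Jag1, a ligand, rose under Crxos, Oboxa1 and Oboxa4 in the 15-library fit and under all 4 within the sets. Dlk2, the close relative of Dlk1, was the gene that fell under Crxos in the 15-library fit.

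Of 10 other imprinted growth genes, a class to which Dlk1 belongs, 4 rose and 1 fell under Crxos, and 2, 5 and 4 rose under Oboxa1, Oboxa4 and Oboxa7 with none that fell. Within the sets 2, 3, 5 and 5 rose in the same order and none fell. Plagl1, the gene that fell, was at -0.01 within the sets. Cdkn1c, a cell cycle inhibitor, was called under all 4 and averaged 24.4, 28.1, 32.4 and 31.2 CPM under Crxos, Oboxa1, Oboxa4 and Oboxa7, against 17.3 CPM in Control. Within the sets it was not called under Crxos. Mest averaged 102.4 ± 12.1 CPM under Oboxa4 and 77.7 ± 6.11 CPM under Oboxa7, against 30.7 ± 8.95 CPM in Control (SD, n = 3 each), a log2 fold change of 1.74 for Oboxa4 (edgeR adjusted p = 0.00564), and was called as higher under all 4 within the sets. Dio3, which lies in the same imprinted cluster as Dlk1, rose under Oboxa4 and Oboxa7 with log2 fold changes of 1.18 and 1.11 (edgeR adjusted p = 0.0055 and 0.0165).

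Of 19 transcription factors of adipogenesis, 2 rose and 4 fell under Crxos, 1 fell under Oboxa1, 2 rose and 2 fell under Oboxa4 and 0 were called under Oboxa7 by edgeR. Within the sets 3 rose and 4 fell under Crxos, 2 rose and 3 fell under Oboxa1, 1 rose and 3 fell under Oboxa4 and 2 rose and 2 fell under Oboxa7. Egr2 and Ebf1, both activators, rose under Crxos in both fits. Those that fell under Crxos were Pparg, Prdm16, Ppargc1a and Klf5, which encode the receptor, a determinant of brown fat, a coactivator of PPARγ and an early activator. Klf5 averaged 7.96 ± 0.52 CPM under Crxos and 10.0 ± 1.97 CPM under Oboxa1, against 16.9 ± 5.27 CPM in Control (SD, n = 3 each), log2 fold changes of -1.09 and -0.75 with edgeR adjusted p of 0.00235 and 0.026, and fell under all 4 within the sets. Under Oboxa4, Zfp467 and Klf15, both activators, rose and Klf4 fell with Klf5, and Klf15 was not called within the sets. Klf15 was low, at 25 to 45 counts per Oboxa4 library and 8 to 22 per Control library.

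Of 15 inhibitors of adipogenesis, 3 rose and 4 fell under Crxos, 2 rose under Oboxa1 and 1 rose under each of Oboxa4 and Oboxa7. Within the sets 3 rose and 3 fell under Crxos, 3 rose and 2 fell under Oboxa1, 3 rose and 1 fell under Oboxa4 and 2 rose and 1 fell under Oboxa7. Ddit3 encodes CHOP, a C/EBP relative that blocks the other C/EBP proteins and is induced by stress. It measured 76.9, 91.8 and 82.9 CPM in Crxos libraries, 60.4, 52.4 and 76.6 CPM in Oboxa1 libraries, 53.1, 56.4 and 53.5 CPM in Oboxa4 libraries and 46.7, 55.03 and 40.02 CPM in Oboxa7 libraries, against 47.99, 41.98 and 37.4 CPM in Control libraries. The Crxos libraries, the Oboxa1 libraries and the Oboxa4 libraries all lay above the highest Control library, and the Oboxa7 libraries overlapped with Control.

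Ddit3 rose under Crxos by 0.98 ± 0.14 on the log2 scale (edgeR adjusted p = 0.000542) and under Oboxa1 by 0.57 ± 0.14 (edgeR adjusted p = 0.0185). The Oboxa1 call was lost without Oboxa1 replicate 1 or Control replicate 2 or 3 (adjusted p 0.05 to 0.0876) and with only the compared groups in the fit (0.58, edgeR adjusted p = 0.143). Oboxa4, at 0.36, was called within the sets (0.45, edgeR adjusted p = 0.00283) and with only the compared groups (edgeR adjusted p = 0.0433). Among the inhibitors that fell under Crxos were Gata3 (-1.57) and Wnt10b (-1.39), a GATA factor and a Wnt ligand, with edgeR adjusted p of 0.00489 and 0.00561. Within the sets Gata3 fell under all 4 transfected genes and Wnt10b under Crxos and Oboxa1. Zfp521, an antagonist of Zfp423, rose under Oboxa4 (0.94, edgeR adjusted p = 0.00238) and Oboxa7 (0.73, edgeR adjusted p = 0.0188) in the 15-library fit, and under all 4 within the sets. Of the other C/EBP family genes, 3 of 4 were tested, and Ddit3 was the only gene called in the 15-library fit, under Crxos and Oboxa1. Within the sets Ddit3 rose under Oboxa4 too, where Cebpz fell.

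Genes of lipid storage gave mixed counts. Of 28 listed, 19 were tested, of which 5 rose and 2 fell under Crxos and 3, 4 and 2 rose under Oboxa1, Oboxa4 and Oboxa7. Within the sets 3 rose and 3 fell under Crxos, 5 rose and 1 fell under Oboxa1, and 6 and 4 rose under Oboxa4 and Oboxa7. Lpin1, a phosphatidate phosphatase, averaged 26.5 ± 2.21, 28.6 ± 0.66, 29.5 ± 1.71 and 29.2 ± 2.38 CPM under Crxos, Oboxa1, Oboxa4 and Oboxa7, against 20.1 ± 1.45 CPM in Control (SD, n = 3 each), and was called in all 4 comparisons in both fits. Slc2a4, the insulin-responsive glucose transporter, was called in all 4 in the 15-library fit but at 4 to 26 counts per library. Lpl, the lipase that frees fatty acids from lipoproteins, averaged 31.9 ± 1.56 CPM under Crxos, against 13.7 ± 6.37 CPM in Control (SD, n = 3 each), a log2 fold change of 1.21 (edgeR adjusted p = 0.00331) and 0.60 within the sets. Mgll, a lipase of monoglycerides, rose under Crxos by 1.49 (edgeR adjusted p = 0.0091). Within the sets Lpl and Mgll were called as higher under all 4 transfected genes.

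Among perilipins and PPAR target genes other than the members, 9 of 12 were tested, 3 fell under Crxos and 0 were called by edgeR under any Obox gene in the 15-library fit. Within the sets Pdk4 and Plin4 fell under Crxos and Oboxa1. Plin4, a perilipin relative of Plin2, averaged 7.15 ± 0.39 CPM under Crxos, against 33.1 ± 17.1 CPM in Control (SD, n = 3 each), a log2 fold change of -2.21 (edgeR adjusted p = 0.0124) and -0.92 within the sets. Pdk4 and Cpt1a, which turn metabolism to fatty acid oxidation, fell under Crxos with log2 fold changes of -0.87 and -0.37 (edgeR adjusted p = 0.00899 and 0.00912), and Cpt1a was not called within the sets. Under Oboxa4, where Plin2 fell, 0 of these 9 genes were called in either fit.

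Of 11 surface markers of preadipocytes, 5 rose and 1 fell under Crxos, 1 rose and 1 fell under Oboxa1, 1 fell under Oboxa4 and 2 rose and 2 fell under Oboxa7. Within the sets 4 rose and 2 fell under Crxos, 3 rose and 2 fell under Oboxa1, 3 rose and 3 fell under Oboxa4 and 3 rose and 2 fell under Oboxa7. Thy1, which is also 1 of the fibroblast markers, averaged 858 ± 43.5 CPM under Crxos, against 402 ± 105 CPM in Control (SD, n = 3 each), a log2 fold change of 1.10 (edgeR adjusted p = 0.00168). Cd34 fell under each Obox gene, by 0.56, 0.57 and 0.58 on the log2 scale for Oboxa1, Oboxa4 and Oboxa7, and within the sets under Crxos as well. Of 9 tested genes that glucocorticoids induce, 3 rose and 2 fell under Crxos, 2 fell under Oboxa1, 1 rose and 2 fell under Oboxa4 and 1 rose under Oboxa7. Within the sets 2 rose and 1 fell under Crxos, 2 fell under Oboxa1 and 1 rose and 2 fell under each of Oboxa4 and Oboxa7. Sgk1 and Errfi1 were those that fell under Oboxa1 and Oboxa4 in both fits and under Oboxa7 within the sets, and Sgk1 fell under Crxos in the 15-library fit.

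**Figure D4:**
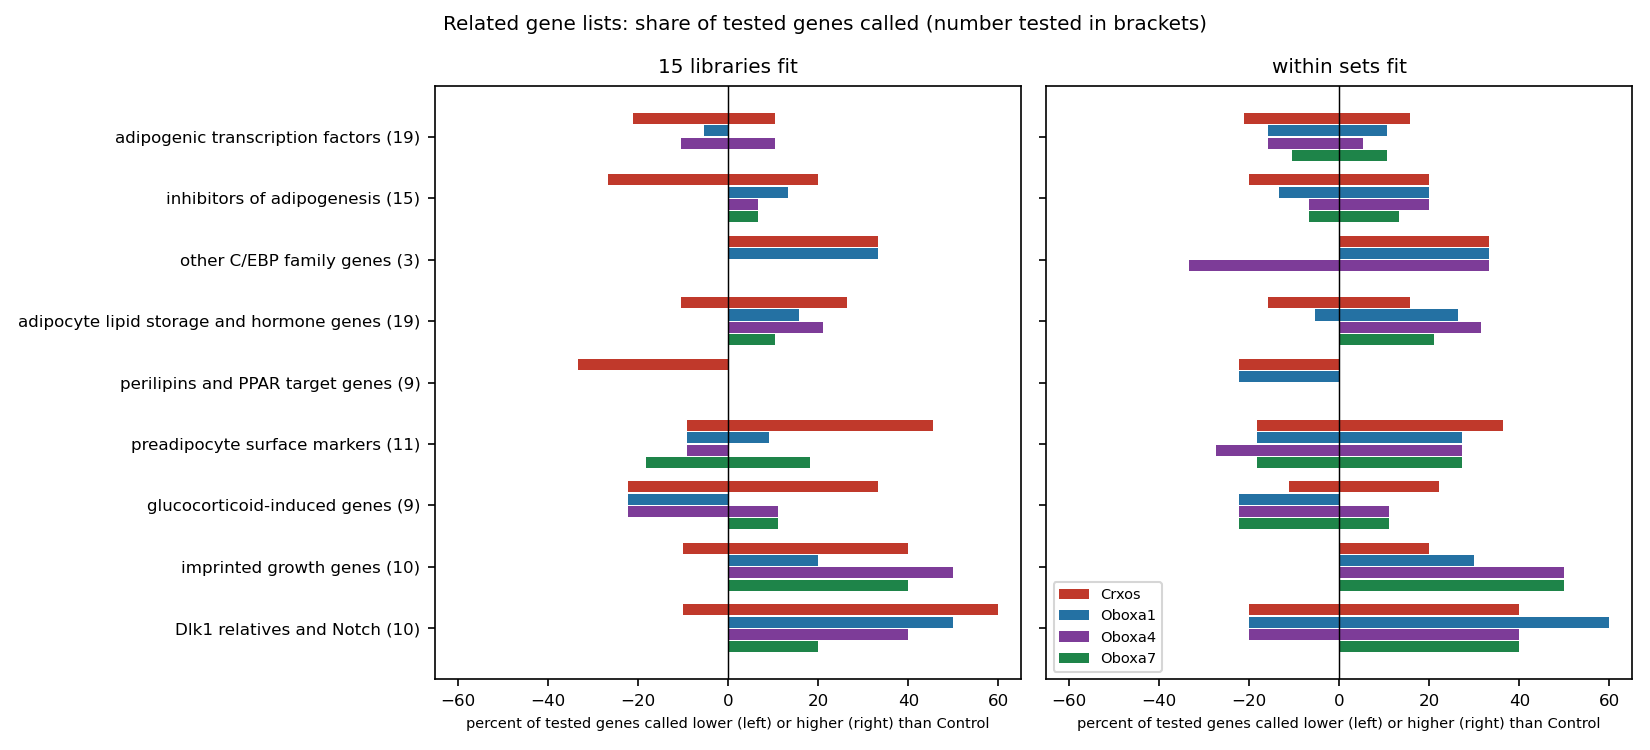
Share of the tested genes of each related list that were called lower (to the left, as negative percent) or higher (to the right) than Control, for Crxos, Oboxa1, Oboxa4 and Oboxa7, in the 15-library fit and within the sets. The Notch list reaches 6 of 10 genes higher under Crxos in the 15-library fit, where 8.38% of all genes were called higher. The perilipin and PPAR target list extends to the left only.

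The genes most alike to each tested member in log2 CPM over the 15 libraries were found by Pearson's r, as a description without a test. Fabp4 was followed most closely by Pam (0.99) and Hebp1 (0.99), Dlk1 by Mdk and Klhdc3 (both 0.97) and Plin2 by Etf1 and Dusp5 (0.97 and 0.96). The values were 0.94 for Cebpb with Hoxc4 and with Mdfi, and lower for the remaining members, with Cebpa nearest to Zfp503 (0.89) and Mgst1 (0.88), Cebpd to Cox6a2 (0.89) and Lck (0.88) and Zfp423 to Lipa and Susd2 (both 0.88). The libraries share conditions and the split into sets, so these values do not measure independent agreement. None of the genes named here was another member.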

How the data were processed

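The authors deposited raw counts per protein-coding gene as whole numbers, neither normalized nor filtered. The RNA was poly-A enriched per the labels. Per the paper's methods, it was sequenced as paired ends, aligned to GRCm38/mm10 with STAR and counted with featureCounts against the NCBI annotation. The sources used here give no versions and no strand setting, so reads of overlapping genes on opposite strands may not be told apart. Columns were matched to conditions by the sample labels, and 0 columns were left unused. Same-condition libraries differed by more than sampling noise (chi-square per degree of freedom 4.02 to 78.9 over 15 pairs).

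Counts were scaled by TMM, low genes were removed by filterByExpr, and edgeR 4.0.16 (R 4.3.3, limma 3.58.1) fitted quasi-likelihood models over all 15 libraries without a block, two-sided, with Benjamini-Hochberg adjustment over 14012 genes. A gene was called at an adjusted p under 0.05 and a change of more than 25%. CPM are counts on a common library size after TMM scaling, and RPKM divide these by the deposited gene length. Log2 CPM for likeness and components used a prior count of 2. The scripts were tested on simulated data with 200 changed genes.

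All members, Pparg and Ddit3 were named, with up to 3 called genes of smallest p in each related list and comparison and the 2 genes most alike to each member. List genes outside this rule (Dlk2, and the calls named to account for a count) were chosen after their values were seen. The members, the lists and the sets were chosen with earlier results of these data known. Alternatives were other scaling, DESeq2 1.42.0, other filters, only the groups compared, a replicate block, a term for the sets, the within-set fit and leaving out each library. In the within-set fit, conditions with a lone library in a set take their spread from the other groups. Sequences are from RefSeq on GRCm38.p6.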

Additional observations from a re-analysis of the deposited data

Results flagged for a closer look

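For 5 members the effect of Crxos differed from that of an Obox gene in a test of the difference itself (edgeR's quasi-likelihood test over all 15 libraries, Benjamini-Hochberg adjusted). Against Oboxa4, the Crxos effect on Fabp4 was lower by a log2 difference of -1.52, and those on Plin2 and Cebpa were higher by 0.40 and 0.39. Against Oboxa7, the difference was -1.34 for Fabp4, 0.67 for Cebpa, 0.71 for Dlk1 and 0.39 for Cebpd. Among all genes, 20.6% were called against Oboxa4 and 17.4% against Oboxa7. In each case the 3 Crxos libraries did not overlap with the 3 libraries of the other gene. The share of all genes without such overlap was not computed. The members were picked by a call on the same libraries, so this adds no support to these differences. None passed within the sets of libraries, where the differences from Oboxa4 were -0.32 for Fabp4, 0.33 for Plin2 and 0.29 for Cebpa (edgeR adjusted p = 0.33, 0.072 and 0.485). Those from Oboxa7 were -0.15 for Fabp4, 0.57 for Cebpa, 0.03 for Dlk1 and 0.24 for Cebpd (edgeR adjusted p = 0.746, 0.183, 0.925 and 0.52). The set and the transfected gene cannot be told apart in the 15-library values. The within-set values compare no Crxos library directly with an Oboxa4 or Oboxa7 library. They subtract the Obox change from Control replicates 2 and 3 from the Crxos change from Control replicate 1 alone.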

How the results depend on the processing

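With upper-quartile scaling and without a filter, the counts of members called and the 36 log2 fold changes against Control (7 members, Pparg and Ddit3 in 4 comparisons) kept their direction and their side of the thresholds. The other settings changed some. The count of members called was 2 for Oboxa4 against Oboxa7 with only the groups compared. With a term for the sets it was 3, 2, 4 and 1 for Crxos, Oboxa1, Oboxa4 and Oboxa7 against Control and 1 for Oboxa4 against Oboxa7. Within the sets it was 2, 2, 4 and 2 for the same comparisons with Control and 2 for Oboxa4 against Oboxa7. DESeq2 added Cebpb under Crxos. With the term for the sets, 11.7%, 13.8%, 17.3%, 9.51% and 2% of all genes were called, in the order of the counts above. The within-set shares are given above, and none was computed with only the groups compared.

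Some signs turned. Dlk1 under Oboxa7 was 0.000584 with DESeq2 size factors, 0.0041 with the filter of 1 CPM in 3 libraries, 0.0072 with the replicate block, 0.17 with a term for the sets and 0.26 within the sets. Under Oboxa4, Fabp4 was -0.26 with the term and -0.18 within the sets, and Pparg -0.33 and -0.24, the first of which passed the thresholds (edgeR adjusted p = 0.0411). Ddit3 with only the groups compared was 0.58 under Oboxa1, no longer called, and 0.36 under Oboxa4, called. The replicate block changed no call, and same-numbered libraries deviated together in 3 of 21 pairs (correlation over 0.1, range -0.485 to 0.444), so the numbers were not taken to pair the libraries. The study's methods mention matching of experiments by date, but no source used here says that a number marks a day or which libraries shared one, and the part of days in the sets was not tested.

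With each library left out in turn, the members called numbered 3 to 6 under Crxos, 0 to 2 under Oboxa1, 2 to 4 under Oboxa4, 0 under Oboxa7 and 0 to 1 for Oboxa4 against Oboxa7. The share of all genes called was not computed for these fits. Log2 fold changes that crossed 0 ranged, under Oboxa1, from -0.064 to 0.078 for Cebpd, -0.62 to 0.071 for Fabp4 and -0.53 to 0.11 for Pparg, and, under Oboxa4, from -0.18 to 0.33 for Fabp4 and -0.24 to 0.22 for Pparg. Under Oboxa7 they ranged from -0.24 to 0.042 for Cebpa, -0.10 to 0.35 for Cebpb, -0.063 to 0.099 for Cebpd, -0.36 to 0.16 for Fabp4, -0.13 to 0.26 for Dlk1 and -0.42 to 0.044 for Pparg. The cause of these changes was not tested. Limits are the 3 libraries per condition, the Control libraries divided between the sets, and counts of at most 4 for Adipoq and Cd36.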
